A study of Mus musculus with 2 samples.

Results

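The Notch pathway lets neighbouring cells signal to each other, and 10 of its genes are described here in mouse pluripotent cells. They are the receptor genes Notch1, Notch2, Notch3 and Notch4, the ligand genes Dll1, Dll3 and Jag1, and the target genes Hes1, Hes5 and Hey1. The members were chosen by gene symbol, and all 10 were among the 18032 genes listed for the series. The choice used no measured value as a threshold, but it was made with earlier results of these data known.

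Polyadenylated RNA was sequenced from 2 cell populations, with 1 library each. The cEpiSC library came from primed epiblast stem cells that were converted in vitro from 2iLIF cultures, given as wild type. For the conversion, cells were plated on fibronectin in 2iLIF for 24 h and then kept for 2 days in N2B27 that held activin A at 20 ng/ml and FGF2 at 12 ng/ml. The mESC library came from wild-type ES-E14TG2a embryonic stem cells, a feeder-free laboratory line held in the ground state by serum-free N2B27 with 1 µM PD0325901, 3 µM CHIR99021 and LIF at 100 units/ml. PD0325901 blocks ERK signalling, and CHIR99021 inhibits GSK3. The populations differ in medium, substrate and state at the same time, and these cannot be told apart.

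With 1 library per population replicate error could not be estimated, and p-values were not computed. The libraries held 19956733 (cEpiSC) and 19843719 (mESC) estimated counts. Of 8 markers of naive embryonic stem cells, 6 were at least 2-fold lower in cEpiSC, none was higher, and 2 lay within 2-fold. Those 2 were still abundant in cEpiSC. Nanog (partly shared reads) stood at 531 TPM in cEpiSC and 1036 TPM in mESC, and Zfp42 at 282 and 533 TPM. All 7 markers of the primed or formative epiblast were at least 2-fold higher. Levels between genes are compared in TPM, which is scaled for transcript length. The log2 ratio of cEpiSC over mESC was taken from CPM, counts scaled to library size, with 2 added as a prior count. Its 95% interval is an exact conditional interval without the prior count, and it covers counting error only. Folds printed beside a log2 ratio also leave out the prior count. At low counts they are therefore larger than the log2 ratio implies. A gene entered the ranking if either library reached 1 CPM, and calls rest on the size of the log2 ratio alone, at a difference of 2-fold.

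A Notch receptor is a transmembrane protein that is cut when a ligand of the Delta or Jagged family on the next cell binds it and is pulled. The cut releases the intracellular domain, which enters the nucleus, binds the DNA-binding protein Rbpj together with Mastermind coactivators, and turns on repressor genes of the Hes and Hey families. In mouse embryonic stem cells the pathway is known mainly for a role in the choice of a neural fate on leaving pluripotency. Hes1 is also known to respond to signals other than Notch.

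The 10 genes differed by role. The 4 receptors lay within 2-fold between the populations, the 3 ligands were higher in cEpiSC, and the 2 targets that could be ranked were lower. Thus 3 of the 9 ranked members were at least 2-fold higher, against 13.6% of all 13243 ranked genes. At least 2-fold lower were 2 members, against 9.25% of all ranked genes. With so few members, these shares are given only as a description. The median log2 ratio was -0.05 over the 9 ranked members and -0.02 over all ranked genes. Counting intervals that did not reach back to 2-fold were found for 1 higher member (Dll1), against 9.15% of all ranked genes, and for 1 lower member (Hes1), against 6.34%. The remaining member, Hes5, stayed under 1 CPM in both libraries. All 10 members had whole-number counts in both libraries, within 0.005, so no fractional sharing of reads with similar loci was visible. Reads assigned wholly to a single one of several similar loci would not show in this way.

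**Figure D1:**
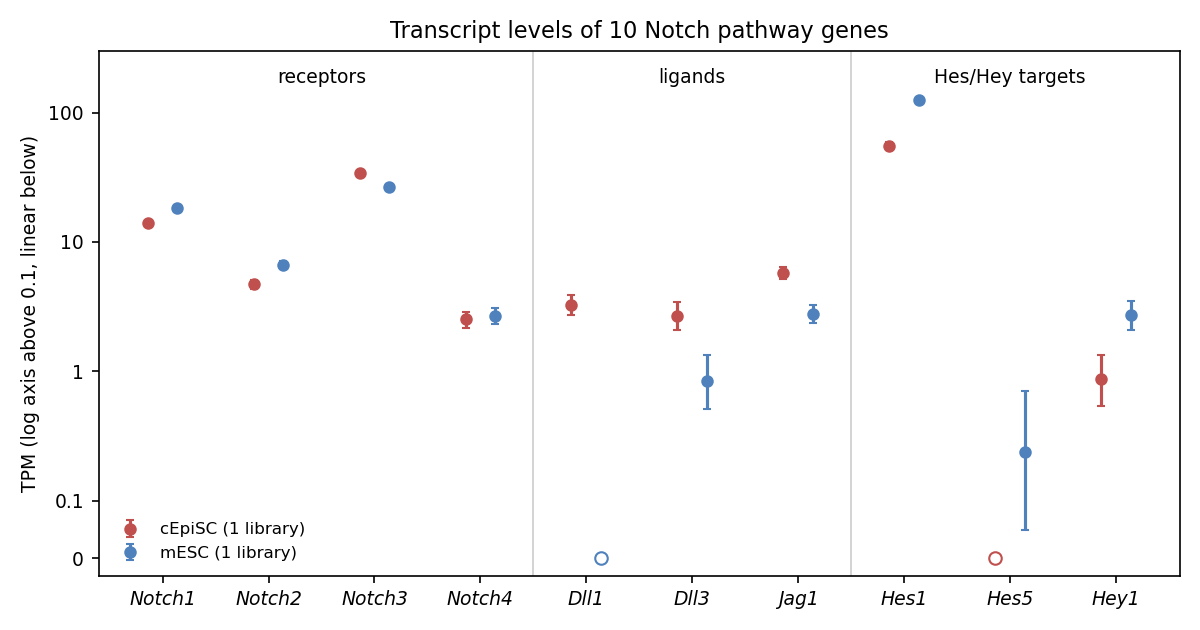
Transcript level (TPM, log axis above 0.1) of each member in cEpiSC (red, left) and mESC (blue, right), 1 library each. Bars are 95% Poisson intervals of the count, and open circles mark a count of 0. Hes1 and Notch3 stood highest in both libraries, and Dll1 in mESC and Hes5 in cEpiSC had no reads.

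Among the receptors, Notch3 was the most abundant in both populations and the only one with a higher TPM in cEpiSC. Notch3 (Entrez 18131, chromosome 17, 32120820 to 32166896, build GRCm38.p6) reached 34.1 TPM in cEpiSC and 26.4 TPM in mESC, from 3185 and 2257 counts. Its log2 ratio was 0.42 (0.34 to 0.49). Notch1 (Entrez 18128, chromosome 2, 26457902 to 26503822), the receptor best known from early development and blood, stood at 13.9 TPM in cEpiSC and 18.4 TPM in mESC, from 1543 and 1869 counts. Its log2 ratio was -0.36 (-0.46 to -0.26). Notch2 (Entrez 18129, chromosome 3, 98013538 to 98150367) stood at 4.70 TPM in cEpiSC and 6.66 TPM in mESC, from 577 and 749 counts, with a log2 ratio of -0.46 (-0.62 to -0.30). The counting intervals of these 3 receptors did not include 0, but each difference was far smaller than 2-fold.

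Notch4 (Entrez 18132, chromosome 17, 34564286 to 34588543), a receptor known chiefly from blood vessels, stood at 2.52 TPM in cEpiSC and 2.69 TPM in mESC, from 193 and 189 counts. Its log2 ratio of -0.05 (-0.35 to 0.25) was not distinguishable from 0 at this depth. Markers of endothelium and blood were at mixed levels. Cdh5, the cadherin of vessel walls, had 1 count in cEpiSC and 2 in mESC, and Ptprc, the pan-leukocyte gene, had 0 in both. The 8 markers of that list summed to 67.4 TPM in cEpiSC and 126 TPM in mESC, of which Pecam1 made up 58.3 and 117 TPM. Pecam1 is also known to be expressed by embryonic stem cells. Tek, a receptor of vessel walls, stood at 7.91 TPM in cEpiSC and 7.25 TPM in mESC, above Notch4 in both. Kdr was called lower, with 5 counts in cEpiSC and 42 in mESC. Runx1 was called higher, with 23 counts in cEpiSC and 6 in mESC (log2 ratio 1.58, 0.52 to 3.44). Tie1 had 22 and 15 counts and lay within 2-fold, and Tal1, under 1 CPM in both libraries, had 13 and 3. The part of such cells in the Notch4 values was not tested.

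Summed over the 4 receptors, the level was 55.2 TPM in cEpiSC and 54.2 TPM in mESC, while its make-up differed. Notch3 took 61.7% of the summed receptor TPM in cEpiSC and 48.8% in mESC. Notch1 took 25.2% in cEpiSC and 34.0% in mESC, and Notch2 took 8.51% and 12.3%. Notch4 took 4.56% in cEpiSC and 4.96% in mESC. As shares of counts, which favour longer transcripts, Notch3 took 57.9% in cEpiSC (exact Clopper-Pearson 95% interval 56.6% to 59.2%) and 44.6% in mESC (43.2% to 46.0%). These intervals did not overlap, and they cover counting error only. All 4 receptors belong to the tenth of ranked genes with the longest transcripts, whose median log2 ratio was -0.32. Whether transcript length affects the receptor ratios was not tested. Relative to that median the log2 ratios were 0.73 for Notch3, 0.27 for Notch4, -0.04 for Notch1 and -0.14 for Notch2, so Notch4 changed sign. Notch4 also stood slightly above 0 when library totals alone were used for scaling (0.02).

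**Figure D2:**
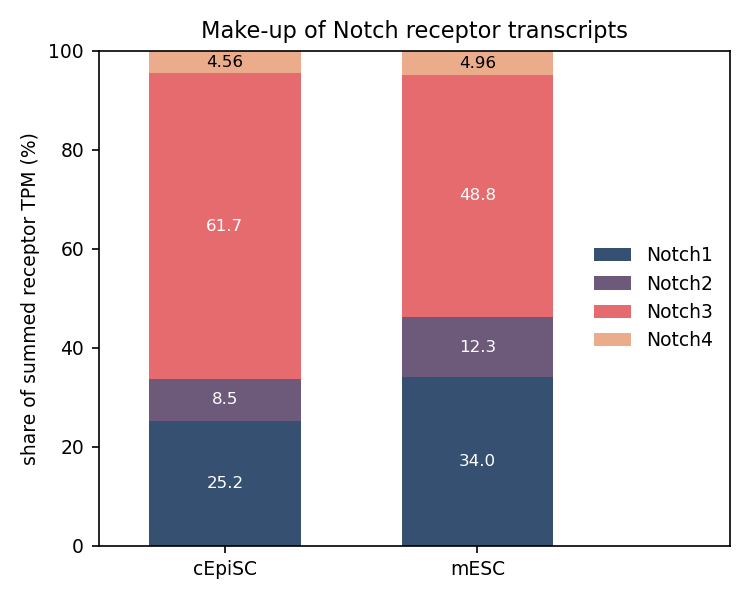
Share of each receptor gene in the summed TPM of the 4 Notch receptor genes (%), in cEpiSC (left bar) and mESC (right bar), 1 library each. Notch3 makes up 61.7% in cEpiSC and 48.8% in mESC, while Notch1 and Notch2 take smaller shares in cEpiSC.

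All 3 member ligands were higher in cEpiSC. Dll1 (Entrez 13388, chromosome 17, 15367354 to 15376932), a Delta ligand that activates receptors on neighbouring cells, had 130 counts in cEpiSC and 0 in mESC. This was 3.28 TPM in cEpiSC, against a gene listed at 0 in mESC, and 41.0-fold higher when mESC is set to a floor of 3 counts per library. That fold leaves out counting error in cEpiSC. The lower 95% limit of its log2 ratio was 5.04. Dll3 (Entrez 13389, chromosome 7, 28293555 to 28301785), a divergent Delta known to act inside the cell and to inhibit Notch rather than activate it, had 66 counts (2.70 TPM) in cEpiSC and 19 (0.850 TPM) in mESC. It was 3.28-fold higher, with a log2 ratio of 1.62 (0.96 to 2.53). Jag1 (Entrez 16449, chromosome 2, 137081451 to 137116520), a Jagged ligand, had 369 counts (5.79 TPM) in cEpiSC and 162 (2.78 TPM) in mESC. It was 2.15-fold higher, with a log2 ratio of 1.10 (0.84 to 1.38), and its interval, like that of Dll3, reached below 2-fold.

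The levels of the ligands were low, and low genes were often called. Dll1 and Dll3 stayed under 10 CPM, at 6.35 and 3.23 CPM in cEpiSC, and 32.8% of the 3445 ranked genes between 1 and 10 CPM in their higher library were called higher in cEpiSC. Jag1 reached 18.0 CPM in cEpiSC, and 8.02% of the 7031 genes between 10 and 100 CPM were called higher. Dll1 and Dll3 are known from the paraxial mesoderm and from neural progenitors. The 8 markers of primitive streak and paraxial mesoderm summed to 14.7 TPM in cEpiSC and 34.3 TPM in mESC. Most of the mESC sum was Gsc, with 6 counts in cEpiSC and 264 in mESC, and without it the other 7 summed to 14.2 TPM in cEpiSC and 11.7 TPM in mESC. T (10 counts in cEpiSC and 40 in mESC) and Mixl1 (5 and 26) were also called lower. Of the rest, Msgn1 was at 0 in both, Tbx6 had 11 counts in each, and Mesp2, a segmentation factor, was called higher with 133 counts in cEpiSC and 27 in mESC. The 8 markers of neural progenitors summed to 7.33 TPM in cEpiSC and 9.63 TPM in mESC, with Olig2 at 0 in both. Nes made up 3.41 TPM in cEpiSC and 7.71 TPM in mESC, and without it the sums were 3.92 and 1.92 TPM. Pax6 was called higher with 33 counts in cEpiSC and 2 in mESC (log2 ratio 3.07, 2.00 to 7.07, partly shared reads), and Sox1 had 120 and 67 counts and lay within 2-fold. The part of such cells in the ligand values was not tested. In bulk RNA, fewer cells of a type and less RNA per cell cannot be told apart.

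The promoters of the 3 ligands are shown because these genes were the members that were higher together. Each line gives the 250 bases before the annotated start, read 5′ to 3′ on the gene's strand, from RefSeq on GRCm38.p6. Capitals mark matches to the E-box CANNTG, the general site type of basic helix-loop-helix factors, whichever factor binds.
Dll1, chr17:15376933-15377182, minus strand: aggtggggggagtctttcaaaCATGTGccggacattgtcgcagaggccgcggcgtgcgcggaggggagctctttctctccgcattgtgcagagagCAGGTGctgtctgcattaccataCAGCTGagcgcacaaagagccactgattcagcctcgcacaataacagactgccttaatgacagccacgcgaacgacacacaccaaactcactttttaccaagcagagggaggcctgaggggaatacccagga
Dll3, chr7:28301786-28302035, minus strand: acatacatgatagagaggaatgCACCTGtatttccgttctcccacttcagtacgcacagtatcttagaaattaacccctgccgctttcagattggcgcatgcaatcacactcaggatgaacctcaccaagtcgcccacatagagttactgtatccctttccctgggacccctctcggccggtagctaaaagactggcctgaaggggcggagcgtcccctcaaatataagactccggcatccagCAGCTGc
Jag1, chr2:137116521-137116770, minus strand: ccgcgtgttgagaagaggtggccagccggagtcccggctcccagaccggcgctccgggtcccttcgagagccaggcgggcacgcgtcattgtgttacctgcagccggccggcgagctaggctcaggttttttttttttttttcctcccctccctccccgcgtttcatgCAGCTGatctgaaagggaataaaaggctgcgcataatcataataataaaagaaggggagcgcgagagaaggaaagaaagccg
The matches began 229, 155 and 132 bases before the start in Dll1, 228 and 7 bases before it in Dll3, and 82 bases before it in Jag1. E-boxes are common, and 66.2% of 32851 RefSeq promoter windows of the same length hold at least 1.

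Promoter windows matched 8 of the 10 members, with 9 windows in all because Dll1 has a second annotated start. The window of that second start lies inside the Dll1 gene. Hes1 and Hey1 had no match. The letters TGGGAA, the core of the Rbpj site, were searched on both strands and found in 1 of the 9 windows, against 21.6% of all windows. That window belongs to Hes5 and lies inside the annotated gene, which begins at 154960626. It precedes an internal start at 154960923, and the core occurs on either strand, at 226 and 82 bases before that start. Both stretches are shown with the core in capitals (as its reverse complement in the upper line), because Hes5 is known as a direct Notch target.
Hes5, chr4:154960685-154960714, plus strand: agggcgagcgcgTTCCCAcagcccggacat
Hes5, chr4:154960829-154960858, plus strand: ggccgccgagtgTGGGAAcggccgcggcgc
The N-box CACNAG, a site of Hes proteins, was found in 3 of the 9 windows, those of Notch1, Notch2 and Notch3, against 36.7% of all windows on both strands. E-boxes were found in 6 of the 9. The windows held between 4 and 34 CpG pairs, against a median of 6 over all windows. A match describes letters only.

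Both target genes that could be ranked were lower in cEpiSC. Hes1 (Entrez 15205, chromosome 16, 30065357 to 30067796), a repressor known for its cyclic expression, was the most abundant member in both libraries. It had 877 counts (55.3 TPM) in cEpiSC and 1821 (124.52 TPM) in mESC, which placed it at rank 2860 in cEpiSC and 1372 in mESC among all listed genes by TPM. It was 2.20-fold lower, with a log2 ratio of -1.13 (-1.25 to -1.02). Hey1 (Entrez 15213, chromosome 3, 8663359 to 8667038), a related repressor known from heart and vessels, had 21 counts (0.880 TPM) in cEpiSC and 62 (2.72 TPM) in mESC. It was 3.12-fold lower, with a log2 ratio of -1.55 (-2.43 to -0.91). Of ranked genes between 10 and 100 CPM, where Hes1 lies, 7.75% were at least 2-fold lower, as were 12.9% of those between 1 and 10 CPM, where Hey1 lies. Hes5 (Entrez 15208, chromosome 4, 154960626 to 154962372), a target that marks Notch activity in neural progenitors, had 0 counts in cEpiSC and 3 in mESC. Both are at or under the floor of 3 counts, so no difference was detectable at this depth.

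**Figure D3:**
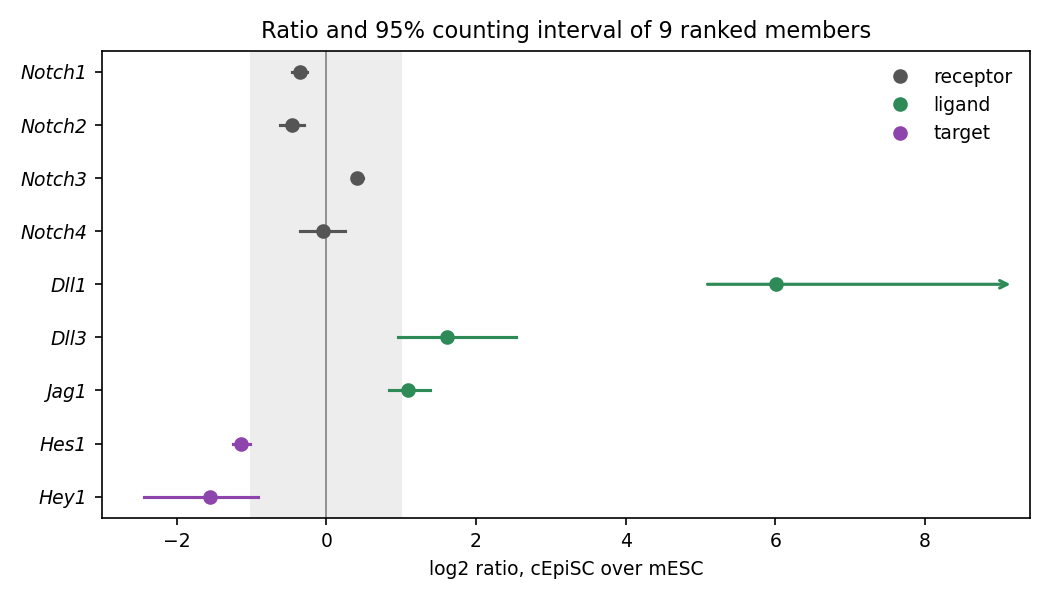
Log2 ratio of cEpiSC over mESC (x axis) of the 9 ranked members, with the 95% counting interval as a line and the range within 2-fold shaded. The 4 receptors lie within 2-fold, Dll1, Dll3 and Jag1 above it, and Hes1 and Hey1 below it. The arrow marks the open interval of Dll1, whose point depends on the prior count.

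In cEpiSC the order of the members by TPM was Hes1, Notch3, Notch1, Jag1, Notch2, Dll1, Dll3, Notch4, Hey1 and Hes5. Neighbours whose Poisson intervals overlapped were Dll1 with Dll3 and Dll3 with Notch4. In mESC the order was Hes1, Notch3, Notch1, Notch2, Jag1, Hey1, Notch4, Dll3, Hes5 and Dll1. There the intervals of Jag1, Hey1 and Notch4 overlapped at 2.78, 2.72 and 2.69 TPM, and so did those of Dll3 and Hes5. Hes5 and Dll1, with 3 and 0 counts in mESC, could not be ordered at this depth. Jag1 stood above Notch2 in cEpiSC, at 5.79 against 4.70 TPM, and below it in mESC, at 2.78 against 6.66 TPM.

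The transcript length that the authors' estimate implies gives a readout apart from the level. It was computed from counts and FPKM for the 6 members with 50 or more counts in both libraries. The implied length of Hes1 was 1346 nt in cEpiSC and 1356 nt in mESC, a difference of -0.72%, the largest of the 6. Notch4 had 6491 nt in cEpiSC and 6524 nt in mESC (-0.51%), and Notch1, Notch2, Notch3 and Jag1 differed by less. The Notch4 FPKM values, 1.49 in cEpiSC and 1.46 in mESC, are rounded, and rounding alone can shift its length this much. The Notch4 log2 length ratio was -0.007 from counts and FPKM and -0.003 from counts and TPM. Of 10876 genes with that many counts, 96.1% lay within 0.1 on the log2 scale. All 6 members lay within that range.

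RefSeq annotates genes that overlap some members. Noncoding genes overlap Notch1 (0610009E02Rik and Mir6996), Notch2 (Gm40103) and Notch3 (Gm38585 and Gm41568), and the protein-coding LOC115489673 overlaps Hey1 at 8666924 to 8669688. Whether counting used strand is not given in the sources used here, so reads of such genes may be mixed with those of the member.

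Among other ligands, Jag2 was the most abundant Notch ligand in both populations. Jag2 stood at 21.9 TPM in cEpiSC and 7.20 TPM in mESC, from 1175 and 361 counts, with a log2 ratio of 1.62 (1.45 to 1.80). It made up 64.9% in cEpiSC and 66.3% in mESC of the summed TPM of Dll1, Dll3, Dll4, Jag1 and Jag2. That sum was 33.7 TPM in cEpiSC and 10.9 TPM in mESC, a ratio of 3.11. The summed receptor TPM was thus 1.64 times the summed ligand TPM in cEpiSC and 4.99 times in mESC. Dll4 had 3 counts in cEpiSC and 1 in mESC. Of the atypical ligands, Dlk1 had 79 counts in cEpiSC and 22 in mESC (log2 ratio 1.68, 1.07 to 2.52). Dner had 12 and 24, and was within 2-fold by its log2 ratio (-0.96, -2.21 to -0.02). Without the prior count it was 2.12-fold lower.

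In the rest of the pathway, 70 genes in 9 lists were examined and 61 ranked. In cEpiSC, 8 of these 61 exceeded a 2-fold difference upwards, against 13.6% of all ranked genes. Downwards it was 7, against 9.25% of all ranked genes, and 46 did not reach it. These counts are given only as a description. Their median log2 ratio was -0.26, against -0.02 over all ranked genes. The lists and their genes were chosen with earlier results known.

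The enzymes that cut the receptor lay within 2-fold except Ncstn. Ncstn, which encodes the nicastrin subunit of gamma-secretase, stood at 31.4 TPM in cEpiSC and 67.9 TPM in mESC, with a log2 ratio of -1.07 (-1.18 to -0.96) and partly shared reads. The ratio was -0.998 with library totals alone. All 10 genes of that list were below 0, with a median of -0.44, but 2 stood above 0 with library totals, with FPKM or relative to genes of like length. Of 6 genes that add sugars to the receptor, Mfng alone was called. Mfng, a Fringe enzyme that changes which ligands a receptor answers to, stood at 14.2 TPM in cEpiSC and 2.82 TPM in mESC, from 296 and 52 counts, 5.38-fold higher (log2 ratio 2.39, 2.00 to 2.88). Its relative Lfng had 35 counts in cEpiSC and 28 in mESC.

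Of 4 genes for the endocytosis of ligands, Neurl1b, a ubiquitin ligase gene, was higher with 45 counts in cEpiSC and 14 in mESC (log2 ratio 1.48, 0.71 to 2.58). It fell short of 2-fold on the log2(value + 1) scale of TPM (0.43) and FPKM (0.29). Mib1, whose product is the main ligase of this step, had 640 and 1022 counts and lay within 2-fold. Of 11 genes for receptor trafficking and turnover, 1 was higher, 1 lower and 9 within 2-fold, and both called genes belong to the Deltex family of ubiquitin ligases. Dtx4 had 148 counts in cEpiSC and 6 in mESC, 23.3-fold higher (log2 ratio 4.16, 3.39 to 6.01). Dtx1, itself known as a Notch target in lymphoid cells, stood at 13.7 TPM in cEpiSC and 33.5 TPM in mESC (log2 ratio -1.24, -1.38 to -1.10). These members of a family thus differed in opposite directions.

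The nuclear genes were also mixed. Rbpj, the DNA-binding protein of the pathway, stood at 237 TPM in cEpiSC and 104 TPM in mESC, from 14417 and 5573 counts, with a log2 ratio of 1.29 (1.25 to 1.335) and partly shared reads in cEpiSC. Of the Mastermind coactivators, Maml2 was 5.69-fold lower with 39 counts in cEpiSC and 210 in mESC (log2 ratio -2.45, -3.04 to -2.01), while Maml1 had 398 and 440 counts. Crebbp, an acetyltransferase gene, had a log2 ratio of -1.13 (-1.29 to -0.98), which was -0.81 relative to genes of like length. Among 10 genes for corepressors of Rbpj, Ctbp2 was higher (log2 ratio 1.12, 1.05 to 1.18). Spen was lower (-1.21, -1.33 to -1.09), but it stood at -0.89 relative to genes of like length.

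Among the remaining Hes and Hey genes, Hes6 differed in the opposite direction to Hes1. Hes6, whose product is known to antagonise Hes1 in neural cells, stood at 90.0 TPM in cEpiSC and 12.1 TPM in mESC, from 1319 and 164 counts, 7.60-fold higher (log2 ratio 2.91, 2.69 to 3.17). Hes6 took 61.3% of the summed TPM of the 9 Hes and Hey genes in cEpiSC and 8.61% in mESC, and Hes1 took 37.6% in cEpiSC and 88.6% in mESC. The sum itself was 147 TPM in cEpiSC and 140 TPM in mESC. Hes2, Hes3, Hes7, Hey2 and Heyl were below 1 CPM in both. Nrarp, a feedback inhibitor of Notch that is a direct target, had 261 counts in cEpiSC and 154 in mESC. It lay within 2-fold, on the higher side (log2 ratio 0.67, 0.39 to 0.98). Bhlhe40 also lay within 2-fold, on the lower side (-0.85, -0.94 to -0.76). Of 6 Groucho genes, whose products are corepressors recruited by Hes proteins, Tle3 was lower at 26.9 TPM in cEpiSC and 77.1 TPM in mESC (log2 ratio -1.48, -1.57 to -1.40), and the other 5 were within 2-fold.

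**Figure D4:**
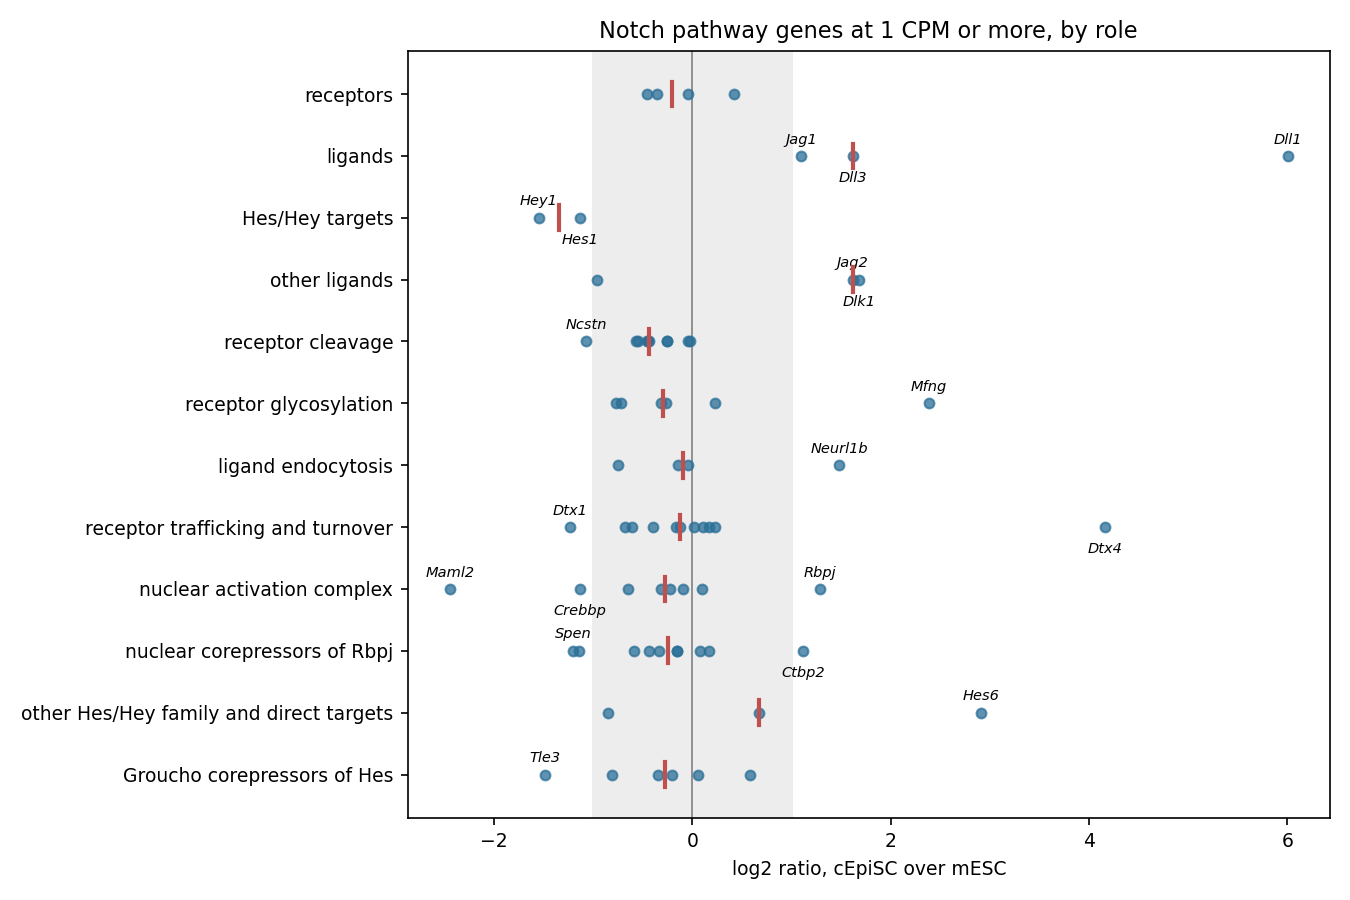
Log2 ratio of cEpiSC over mESC (x axis) of every ranked Notch pathway gene, in rows by role, with the median of each row as a red bar and the range within 2-fold shaded. Genes at least 2-fold apart are named, except 1. The ligand rows lie to the right except for Dner (-0.96), and most other rows have medians near 0. Dtx4, Hes6 and Mfng stand far to the right of their rows.

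Genes with values most like those of Dll1 and Hey1, the ranked members with the highest and lowest log2 ratio, were found by Euclidean distance over log2(TPM + 1) in the 2 libraries. For Dll1 they were Rspo4, Mup4 and Gm525, which had 81, 29 and 18 counts in cEpiSC and 0 in mESC. For Hey1 they were Fcgr2b, Nfib and Nfkbie, at 0.910, 0.810 and 0.980 TPM in cEpiSC and 2.72, 2.70 and 2.73 TPM in mESC. With only 2 libraries, such likeness describes these values and no more.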

How the data were processed

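Per the labels' protocols, mRNA was captured on oligo(dT) beads, fragmented, primed with random hexamers and sequenced with paired reads on a BGI G400 after PCR. HISAT2, Bowtie2, RSEM 1.3.1, DESeq2 1.34.0 and build GRCm38.p6 appear in the submitters' processing notes. Their roles and the annotation are not stated there. The deposited table gives estimated counts, TPM and FPKM, per the file headers. The estimated counts deposited by the authors are unscaled, and 11.9% (cEpiSC) and 11.3% (mESC) of genes are not whole. TPM and FPKM were scaled per kilobase by the authors, and 0 columns of other samples were present.

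Rounded counts were scaled by the TMM method (edgeR 4.0.16, R 4.3.3), with factors of 1.03 in cEpiSC and 0.975 in mESC, and intervals came from scipy 1.17.1. Intervals and the floor of 3 counts (0.147 CPM in cEpiSC, 0.155 CPM in mESC) cover counting error only, with each count taken as independent. PCR copies were not marked by molecular identifiers, so the intervals may be too narrow. The method was tested on simulated data with counting noise alone. Changes were set only in genes at higher counts, so the members Notch4, Dll1, Dll3, Hey1 and Hes5 were not covered. Neither were other pathway genes with few counts, such as Mfng, Maml2, Dtx4, Dlk1 and Neurl1b. Coordinates, 1-based, and promoters are RefSeq's, on GRCm38.p6. Members and lists were chosen with earlier results of these data known. All members were named. In each list up to 4 ranked genes at least 2-fold apart with the largest ratios were named, or the 2 with the highest mean TPM. Other listed genes were named after their values were seen. Tle5 was matched as Aes. For 2 listed genes no value is reported. Alternatives were DESeq2 1.42.0 size factors, library totals, other filters and prior counts, TPM, FPKM and centring on transcript length.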

Additional observations from a re-analysis of the deposited data

How the results depend on the processing

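No paired analysis was possible because each population has 1 library, so no replicate could be left out either. The number of genes at least 2-fold higher was 1796 of 13243 as reported, 2712 of 18032 without a filter and 970 of 11046 with a filter at 5 CPM. Over the same 13243 genes it was 1091 with TPM and 945 with FPKM (each with a pseudocount of 1); the number lower was 680 with FPKM, against 1225. Of the members, 1 was called higher with FPKM, against 3, and 1 was called lower with TPM, with FPKM or with a filter at 5 CPM, against 2. Dll3 fell short of 2-fold with FPKM (log2 ratio 0.83), Jag1 with TPM (0.85) and FPKM (0.82), and Hey1 with TPM (-0.98) and FPKM (-0.71). A pseudocount of 1 compresses the ratios of genes near 1 TPM, and the filter at 5 CPM removes Dll3 and Hey1. Dll1 and Hes1 kept their calls under every alternative run. The members' median log2 ratio was 0.27 relative to genes of like length, against -0.05. Neurl1b fell short with TPM (0.43) and FPKM (0.29), and Dlk1 (0.97) and Ncstn (-0.96) with FPKM. Of the other pathway genes, 4 were lower with FPKM and 4 relative to genes of like length, against 7. The Notch3 share was 57.9% of counts in cEpiSC and 44.6% in mESC, against 61.7% and 48.8% of TPM, since counts are not scaled for length. No called member or named pathway gene changed sign. Depth limits Hes5, with 0 and 3 counts, and the lack of replicates limits every difference.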

Other observations

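Other basic helix-loop-helix genes, the wider family of the Hes and Hey factors, were looked at after the members' values had been seen, and no test was run. Tcf15, a factor known from somites and from epiblast cells leaving the naive state, had 1084 counts in cEpiSC and 83 in mESC, 12.3-fold higher (log2 ratio 3.60, 3.30 to 3.97). Neurod1, a neuronal and endocrine factor, had 165 counts in cEpiSC and 2 in mESC, with a log2 ratio of 5.32 (4.41 to 9.34). Ascl2, known from trophoblast and intestinal stem cells, had 80 counts in cEpiSC and 27 in mESC (log2 ratio 1.42, 0.84 to 2.17), and Mycn stood at 91.9 TPM in cEpiSC and 55.9 TPM in mESC (0.76, 0.67 to 0.86). Of the Id genes, whose products block such factors from binding DNA, Id1 (log2 ratio -1.55, -2.28 to -0.99), Id3 (-1.76, -2.75 to -1.08) and Id4 (-1.96, -2.62 to -1.46) were lower in cEpiSC, while Id2 had 47 counts in cEpiSC and 22 in mESC. The E proteins Tcf3, Tcf4 and Tcf12, partners of these factors, lay within 2-fold.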
